A study of Mus musculus with 8 samples.

Results

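Pou5f1, Nanog, Sox2 and Sall4, the transcription factor genes usually called the core of the mouse pluripotency network, were followed across mouse stem cell cultures and embryoid bodies. Every probe set of the array that carries 1 of these 4 symbols and no other was taken, which gave 5 of the 45101 probe sets in the table, for 4 of 18194 genes: 1 each for Pou5f1, Nanog and Sox2, and 2 for Sall4. No probe set carried a member symbol together with that of another gene. The study, on heart tissue engineered from parthenogenetic cells, hybridised labelled total RNA from 3 kinds of culture to 8 one-colour Affymetrix arrays. EB_PSC (2 arrays) were embryoid bodies, cell aggregates in which parthenogenetic stem cells of strain C57BL/6 had differentiated for 15 days. PSC (3 arrays) were the undifferentiated parthenogenetic stem cells of strain C57BL/6, taken at day 6 from blastocysts grown out of oocytes activated with strontium chloride, and so of maternal origin only. ESC (3 arrays) were embryonic stem cells of the single line R1, kept with leukemia inhibitory factor on a layer of embryonic fibroblasts. No transgene, knockout or drug treatment is labelled in any group. The strain of R1 and the feeder layer of PSC are not given, so line, strain and culture cannot be told apart from parental origin in any difference between PSC and ESC.

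Pou5f1 encodes Oct4, a POU-domain factor without which the inner cell mass of the blastocyst does not keep its identity. It binds DNA together with Sox2, an HMG-box factor, at paired Sox and octamer elements, and among the genes with such elements are Pou5f1, Sox2 and Nanog themselves. Nanog is a homeodomain factor whose level varies among embryonic stem cells and that can sustain self-renewal when leukemia inhibitory factor is withdrawn. Sall4 is a zinc finger factor that binds with Oct4 and Nanog and holds back trophectoderm genes. Outside pluripotent cells the members part: Pou5f1 and Nanog are otherwise known from germ cells, Sox2 is a factor of neural progenitors and of foregut and sensory epithelia, and Sall4 acts in limb, heart and germ cell development.

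RefSeq promoter windows (GRCm38.p6, 250 bases before to 50 after an annotated start) were at hand for 3 of the 4 genes, Pou5f1, Nanog and Sox2. They are shown because the members of the network are described as binding to their own regulatory regions. The letters searched, on both strands, were CATTGT for the Sox element, ATGCNAA for the octamer, CATTGTNATGCNAA for the pair of them in the classical spacing, AGGTCA for the half-site of nuclear receptors and GGGCGG for the GC box. The pair contains the first 2 motifs, and the capitals mark every match. The windows are Pou5f1 at chr17:35505782-35506081, Nanog at chr6:122707239-122707538 and Sox2 at chr3:34649745-34650044, all on the plus strand.
Pou5f1: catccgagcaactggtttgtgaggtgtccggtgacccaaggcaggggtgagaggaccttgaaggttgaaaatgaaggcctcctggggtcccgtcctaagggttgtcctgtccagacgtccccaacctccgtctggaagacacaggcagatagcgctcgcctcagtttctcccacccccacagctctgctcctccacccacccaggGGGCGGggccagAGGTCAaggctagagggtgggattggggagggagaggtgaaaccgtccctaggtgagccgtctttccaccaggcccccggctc
Nanog: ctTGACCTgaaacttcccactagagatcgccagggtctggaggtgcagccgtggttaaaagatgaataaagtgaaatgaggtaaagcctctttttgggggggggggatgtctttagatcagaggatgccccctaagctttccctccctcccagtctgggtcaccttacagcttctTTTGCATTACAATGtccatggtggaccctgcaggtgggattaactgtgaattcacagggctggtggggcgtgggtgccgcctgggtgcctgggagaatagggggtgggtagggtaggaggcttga
Sox2: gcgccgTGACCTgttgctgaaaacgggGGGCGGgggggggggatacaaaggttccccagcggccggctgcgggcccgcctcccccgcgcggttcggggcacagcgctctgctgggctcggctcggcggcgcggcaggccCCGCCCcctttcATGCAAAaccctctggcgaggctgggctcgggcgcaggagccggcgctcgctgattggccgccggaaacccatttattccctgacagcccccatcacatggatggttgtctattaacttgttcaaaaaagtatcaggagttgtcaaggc
The Nanog window held the complete pair of elements, on the minus strand at bases 176 to 189 of the window. The second Nanog window, at chr6:122707315-122707614, overlaps the first and held the same site at its bases 100 to 113. These letters were chosen with the Nanog element known. They occurred in 2 of all 32851 windows (0.00609%), both of them of Nanog and both through this same site. The Sox2 window held an octamer at bases 152 to 158 and the Pou5f1 window shown held neither the Sox nor the octamer letters, while the second Pou5f1 window held the Sox letters at bases 93 to 98. Singly, the octamer occurred in 10.5% of all windows and the Sox letters in 12.6%. AGGTCA was present in all 3 windows, at bases 218 to 223 for Pou5f1, 3 to 8 for Nanog and 7 to 12 for Sox2 (the last 2 on the minus strand), and in 16.3% of all windows. GGGCGG was present in the Pou5f1 and Sox2 windows and in 35.7% of all windows. A match is a description of the letters and not evidence that a factor binds there.

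The values are deposited log2 RMA values, on which 1 unit is a doubling of signal. The medians of the 8 arrays lay between 5.39 and 5.47, and the median of all values, 5.435, served as the limit for dim probe sets. Every group mean of every member lay above it. Correlations across probe sets were 0.992 between the EB_PSC arrays, 0.994 to 0.995 between PSC arrays and 0.991 to 0.995 between ESC arrays. The difference between 3' and 5' control probe sets, a measure of RNA integrity, was -0.09 to -0.06 for Gapdh in EB_PSC, -0.06 to 0.00 in PSC and 0.08 to 0.17 in ESC. The same difference for Actb was 1.09 to 1.17 in EB_PSC, 1.04 to 1.54 in PSC and 0.69 to 1.13 in ESC. The labels were set beside 9 measured pluripotency markers and 8 cardiomyocyte markers. These lists were chosen with earlier results of these data known, so they are not an independent check of the labels. The mean log2 value of the pluripotency markers was 8.90 to 9.02 in EB_PSC, 10.98 to 11.10 in PSC and 11.30 to 11.61 in ESC, with 0 of 9 dim in any group. That of the cardiomyocyte markers was 8.47 to 9.15 in EB_PSC with 1 of 8 dim, 5.02 to 5.16 in PSC with 5 dim and 4.99 to 5.27 in ESC with 5 dim. Whether each array stands for its own culture is not labelled, and the p-values therefore cover the array-to-array spread, part of which can be technical.

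The first comparison asked how far the core factors had fallen after 15 days of differentiation. All 4 genes were lower in embryoid bodies than in PSC, and each was still above the dim limit there, with Sall4 1424153_s_at closest to it (5.92 and 6.13). Pou5f1 and Nanog kept 22.8% and 26.4% of their PSC signal, whereas Sox2 kept 47.7% and Sall4 42.8%. The limma test called 5 of 5 member probe sets lower, against 18.9% of all 45037 probe sets tested. The EB_PSC arrays lay below all PSC arrays for 5 of 5, against 33.8% of all probe sets. At gene level 4 of 4 were lower, against 25.2% of genes. With the brightest probe set for each gene, the median difference of the 4 members was -1.57 log2 units, against -0.09 for all 18194 genes. In bulk RNA, fewer cells that carry a transcript and less transcript in each cell cannot be told apart.

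Pou5f1 (probe set 1417945_at) was at 9.54 and 9.59 in EB_PSC, against 11.63, 11.75 and 11.72 in PSC and 12.58, 12.12 and 12.21 in ESC. The embryoid body arrays were almost equal to each other and stood 2.04 units below the lowest PSC array. Pou5f1 fell by 2.13 ± 0.15 log2 units (difference ± standard error, 95% confidence interval -2.45 to -1.81, limma adjusted p = 2.3e-07), a 4.39-fold lower signal. Of all probe sets, 0.431% had a lower difference in this comparison.

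Nanog (1429388_at) was at 9.41 and 9.61 in EB_PSC, against 11.52, 11.33 and 11.44 in PSC and 11.82, 11.75 and 11.67 in ESC. Its groups were again far apart, with 1.73 units between the highest EB_PSC and the lowest PSC array. Nanog fell by 1.92 ± 0.13 (interval -2.19 to -1.65, limma adjusted p = 1.51e-07), or 3.78-fold, and 0.677% of probe sets had a lower difference. Pou5f1 and Nanog both have processed pseudogenes, and hybridisation of pseudogene transcripts to these probe sets was not tested.

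Sox2 (1416967_at) was at 11.41 and 11.23 in EB_PSC, against 12.41, 12.08 and 12.69 in PSC and 12.62, 12.72 and 12.61 in ESC. The embryoid bodies were lowest, and the PSC arrays spread over 0.60 units, with PSC 2 lowest and PSC 3 at the level of ESC. Sox2 fell by 1.07 ± 0.16 (interval -1.43 to -0.71, limma adjusted p = 0.000227), or 2.10-fold, and 4.55% of probe sets had a lower difference. The Sox2 gene lies within an intron of the long noncoding RNA gene Sox2ot.

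Sall4 was measured by 2 probe sets. On 1424152_at it was at 10.15 and 9.88 in EB_PSC, against 11.23, 11.24 and 11.23 in PSC and 11.37, 11.35 and 11.36 in ESC. On 1424153_s_at, a type of probe set that can match several transcripts, it was at 5.92 and 6.13 in EB_PSC, against 7.27, 7.33 and 7.26 in PSC and 7.25, 7.11 and 6.76 in ESC. Both probe sets put the embryoid bodies lowest. Sall4 fell by 1.22 ± 0.12 on the first (interval -1.49 to -0.95, limma adjusted p = 7.22e-06) and by 1.26 ± 0.15 on the second (interval -1.59 to -0.93, adjusted p = 3.4e-05), a 2.33-fold and a 2.39-fold lower signal.

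Tested for a change of more than 2-fold in place of any change, 2 of the 5 probe sets were called lower, against 1.47% of all probe sets. They were those of Pou5f1 (limma adjusted p = 0.000117) and Nanog (adjusted p = 0.000196). The intervals of Sox2 and of both Sall4 probe sets include a 2-fold change. Whether 2 members changed by different amounts was tested on the difference between their log2 values within each array, for the 6 pairs. The change of Pou5f1 was lower than that of Sox2 by 1.06 log2 units and than that of Sall4 by 0.91, that is, differences of -1.06 and -0.91. The change of Nanog differed from that of Sox2 by -0.85 and from that of Sall4 by -0.70. In these 4 pairs both EB_PSC arrays lay outside the range of the 3 PSC arrays. Pou5f1 minus Nanog differed by -0.21 and Sox2 minus Sall4 by 0.15, and in both the groups overlapped. With 2 against 3 arrays the exact two-sided permutation test cannot give a p below 0.2, and the 4 separated pairs reached that value (adjusted p = 0.3 over the 6 pairs). None of the pairs can therefore be called different by this test.

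The second comparison asked whether undifferentiated PSC hold the core factors at the level of ESC. Of the 4 genes, Pou5f1 was lower in PSC and the other 3 did not pass the test. The limma test called 1 of 5 member probe sets lower and 0 higher, against 8.55% of all probe sets lower and 7.07% higher. The member share is 1 probe set and is not read as different from that background. Tested for a change of more than 2-fold, 0 of 5 were lower, against 0.209%. The median difference of the 4 genes was -0.29, against 0.01 for all genes. PSC arrays lay below all ESC arrays for 3 of the 5 probe sets (Pou5f1, Nanog and Sall4 1424152_at) and above them for 1 (Sall4 1424153_s_at), against 15.8% of all probe sets below and 16.2% above.

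On average Pou5f1 was at 11.70 ± 0.06 over the PSC arrays and at 12.31 ± 0.24 over the ESC arrays (mean ± SD, n = 3 per group). It fell by 0.61 ± 0.13 (95% confidence interval -0.89 to -0.32, limma adjusted p = 0.00743), so that PSC had 65.6% of the ESC signal. ESC 1 was the highest array, and without it the difference was -0.47 (adjusted p = 0.0262). Nanog averaged 11.43 ± 0.09 in PSC and 11.75 ± 0.08 in ESC, with a difference of -0.32 ± 0.11 (interval -0.56 to -0.07, adjusted p = 0.0829). The groups did not overlap for Nanog, although by 0.15 units only. In the gene-level limma fit, adjusted over the 18194 genes, Nanog had an adjusted p of 0.066.

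Sox2 averaged 12.39 ± 0.30 in PSC and 12.65 ± 0.06 in ESC, with a difference of -0.26 ± 0.15 (interval -0.58 to 0.06, limma adjusted p = 0.292). Its PSC and ESC arrays overlapped. Without PSC 2 the difference was -0.10 and without PSC 3 it was -0.41 (adjusted p = 0.739 and 0.0861). Sall4 averaged 11.24 ± 0.01 in PSC and 11.36 ± 0.01 in ESC on 1424152_at, with a difference of -0.13 ± 0.11 (interval -0.37 to 0.12, adjusted p = 0.533). The standard error of the fit is far wider than these SDs, since the fit pools the spread of the 3 groups, with an SD of 0.19 in EB_PSC, and limma also draws each variance towards that of other probe sets. On 1424153_s_at the averages were 7.28 ± 0.04 in PSC and 7.04 ± 0.25 in ESC, and the difference had the opposite sign, 0.24 ± 0.14 (interval -0.05 to 0.54, adjusted p = 0.286). The 2 Sall4 probe sets thus disagree in direction between PSC and ESC, and neither passed the test. For Nanog, Sox2 and both Sall4 probe sets the intervals leave room for differences of up to -0.56, -0.58, -0.37 and 0.54, so that equal levels are not shown.

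Between PSC and ESC the pairs of members differed by -0.48 (Pou5f1 minus Sall4) to -0.06 (Nanog minus Sox2). The exact two-sided permutation test cannot give a p below 0.1 with 3 against 3 arrays, and 2 pairs reached it, Pou5f1 minus Sall4 and Nanog minus Sall4 (-0.19), each with adjusted p = 0.3. On the same arrays 11 measured fibroblast markers, which bear on the feeder layer, had a mean log2 value of 6.10 to 6.27 in PSC and 6.86 to 7.16 in ESC. Of them 7 were lower in PSC, 0 higher and 4 not called, with 4 of 11 dim in PSC and 2 in ESC. The 3' to 5' difference of Gapdh also separated the PSC and ESC arrays (the ranges given above). The part of feeder RNA or RNA integrity in the Pou5f1 difference was not tested.

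**Figure D1:**
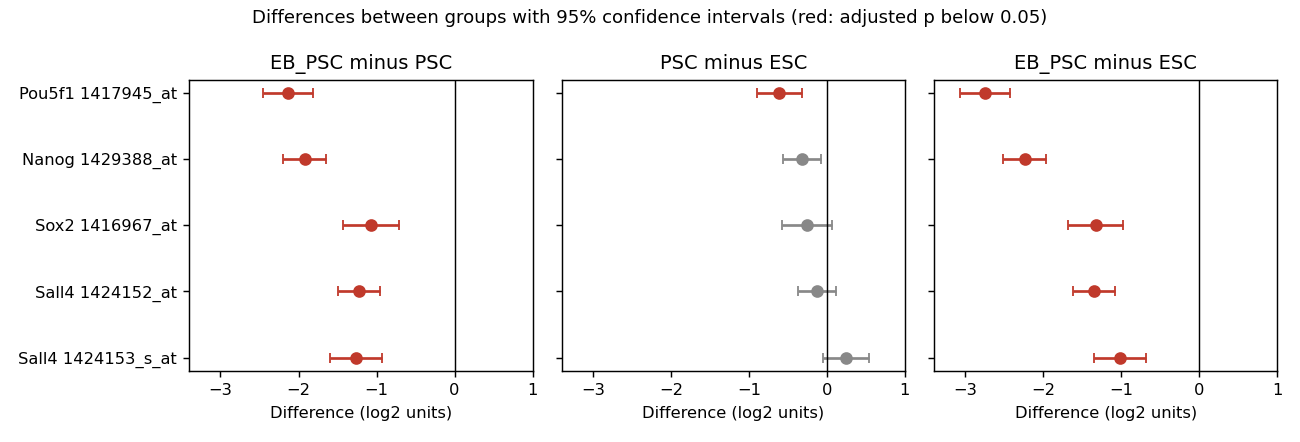
Difference of group means in log2 units (horizontal axis) for the 5 member probe sets, EB_PSC minus PSC, PSC minus ESC and EB_PSC minus ESC from left to right. Points are the limma estimates, bars are 95% confidence intervals and red marks an adjusted p below 0.05. Between PSC and ESC the Pou5f1 interval (-0.89 to -0.32) is the red one and the second Sall4 probe set lies on the other side of 0.

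EB_PSC were also set against ESC, a comparison that shares its arrays with the 2 others. The limma test called 5 of 5 member probe sets lower, against 19.5% of all probe sets, and the groups did not overlap for 5 of 5, against 31.3%. At gene level 4 of 4 were lower, against 25.6% of genes. Tested for a change of more than 2-fold, 2 of 5 probe sets were lower, against 2.23%. Pou5f1 fell by 2.74 ± 0.15 (adjusted p = 2.11e-08) and Nanog fell by 2.24 ± 0.13 (adjusted p = 3.48e-08). Embryoid bodies had 15.0% of the Pou5f1 signal of ESC and 21.2% of the Nanog signal. Sox2 fell by 1.33 ± 0.16 (adjusted p = 3.32e-05), and Sall4 fell by 1.35 ± 0.12 and by 1.02 ± 0.15 on its probe sets (adjusted p = 2.63e-06 and 0.00017). By the group means, the order from low to high was EB_PSC, PSC, ESC for Pou5f1, Nanog, Sox2 and Sall4 1424152_at, and EB_PSC, ESC, PSC for Sall4 1424153_s_at. The step between the undifferentiated groups passed the test for Pou5f1 and for none of the others.

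Within groups the members were not equally steady. Sox2 had an SD of 0.30 over the PSC arrays, larger than that of 94.4% of all probe sets in PSC, and one of 0.06 over the ESC arrays. Pou5f1 ran the other way, with 0.06 in PSC and 0.24 in ESC, and its ESC value was larger than that of 81.1% of probe sets. Sall4 1424152_at had an SD of 0.007 in PSC and of 0.01 in ESC, smaller than for all but 0.269% and 0.77% of probe sets. The 2 EB_PSC arrays differed by 0.05 for Pou5f1, 0.19 for Nanog, 0.18 for Sox2, and 0.27 and 0.22 for the Sall4 probe sets. With 2 or 3 arrays a group these spreads were not compared by a test.

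Genes of the wider network were described from lists of textbook knowledge, at gene level, as counts of genes called by limma. The lists were chosen with earlier results of these data known. The background is 25.2% of all genes lower and 18.8% higher between EB_PSC and PSC, and 11.7% lower and 9.07% higher between PSC and ESC. Of the pluripotency markers, 9 of 9 measured were lower in embryoid bodies, with a median difference of -1.98. Esrrb, an orphan nuclear receptor that takes part in the self-renewal network, fell by 3.62 ± 0.17 (6.88 in EB_PSC, against 10.50 in PSC, limma adjusted p = 1.81e-09). The growth factor gene Fgf4 fell by 2.85 ± 0.17, the nuclear receptor gene Nr0b1, which encodes Dax1, fell by 2.64 ± 0.15 and the chromatin factor gene Utf1 fell by 2.28 ± 0.22. In PSC against ESC 1 of the 9 was higher, 2 were lower and 6 were not called. Zfp42, which encodes the zinc finger factor Rex1, fell by 2.73 ± 0.12 (10.03 in PSC, against 12.76 in ESC, adjusted p = 1.07e-08), and Nr0b1 fell by 0.99 ± 0.14. Fgf4 was higher in PSC by 0.51 ± 0.15 (adjusted p = 0.0278), and this was no longer called when PSC 1, PSC 2, PSC 3 or ESC 2 was left out (0.34 without ESC 2), nor with the mean of its probe sets.

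Of genes taken from the literature as direct targets of Oct4 and Sox2, 7 of 7 measured were lower in embryoid bodies, with a median of -1.68. They share 5 genes with the pluripotency markers, namely Fgf4, Utf1, Fbxo15, Zfp42 and Dppa5a. Of the other targets, the Nodal antagonist gene Lefty1 fell by 2.21 ± 0.19 (8.33 in EB_PSC, against 10.54 in PSC, limma adjusted p = 5.8e-07), and of the shared genes Zfp42 fell by 1.68 ± 0.14 (adjusted p = 4.14e-07). Set against ESC, PSC had 1 of the 7 higher (Fgf4), 1 lower (Zfp42) and 5 not called, with a median of -0.30. With ESC 2 left out 3 of the 7 were lower and 0 higher.

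Of 24 measured genes for proteins that bind with the core factors, 16 were lower in embryoid bodies, 0 higher and 8 not called, with a median of -0.83. Without _x_at and _s_at probe sets Hdac2 was called higher (0.98, limma adjusted p = 0.000227). When probe sets of a gene were averaged, Ctnnb1 was called higher (0.51), and Ncoa3 (-0.86) and Med1 (-0.57) were called lower. Rif1, among the 16 (-0.39), was not called under cyclic loess or the replicate block, nor without PSC 1 or PSC 3. Its difference was -0.42 without EB_PSC 1 and -0.37 without EB_PSC 2. The largest falls were those of Esrrb, of Klf4 (a Kruppel-like factor, -3.03 ± 0.13), of Nr0b1 and of the T-box factor gene Tbx3 (-2.52 ± 0.15). In the undifferentiated cells 7 cofactor genes were lower in PSC than in ESC, 1 higher and 16 not called, with a median of -0.23. Without ESC 2 the counts were 11 lower and 2 higher. Zfp281, among the 7, was not called when arrays were normalized again (quantile or cyclic loess) or its probe sets averaged. Nor was Zfp281 called without PSC 2, PSC 3, ESC 1 or ESC 3. Hcfc1 was not called without PSC 1 or ESC 1, nor Tfcp2l1 when its probe sets were averaged (-0.16). Klf5 fell by 1.56 ± 0.16 (adjusted p = 2.43e-05), Nr0b1 fell by 0.99 ± 0.14, Klf2 fell by 0.93 ± 0.16 and Nacc1, the gene of a BTB-domain partner of Nanog, fell by 0.62 ± 0.13. Tbx3 was higher in PSC by 0.66 ± 0.13 (adjusted p = 0.00367), and not called with the mean of its probe sets (0.22).

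The families of the members held genes called in both directions. Among 9 measured POU genes other than Pou5f1, 1 was higher in embryoid bodies, 1 lower and 7 not called. Pou3f1, which encodes Oct6, a factor of primed epiblast and of glia, rose by 1.08 ± 0.15 (8.04 in EB_PSC, against 6.97 in PSC, limma adjusted p = 4.49e-05), but was not called when its probe sets were averaged (0.36, adjusted p = 0.0636). Pou4f1 was lower on a probe set dim in EB_PSC (5.16, against 5.62 in PSC), and it was not called without PSC 1 or without either EB_PSC array. Set against ESC, PSC had Pou4f1 higher, at 5.62 in PSC, against 5.01 in ESC (dim, limma adjusted p = 0.00479). When its probe sets were averaged, the Pou4f1 difference was 0.12 and not called. The other 8 POU genes were not called. Among 19 SOX genes other than Sox2, 7 were higher in embryoid bodies, 2 lower and 10 not called. Sox7, not called on a dim probe set, was called higher when its probe sets were averaged (0.94, limma adjusted p = 3.49e-05). Sox1, among the 7, was then not called (0.072). Sox18, also among the 7 (0.59), was not called with the replicate block, nor without PSC 1 or PSC 3. Its difference was 0.34 without EB_PSC 1. Sox13 was called lower (-0.35) with groups fitted pairwise or without ESC 1. Sox17, a factor of endoderm and endothelium, was at 9.64 in EB_PSC, against 3.52 in PSC. The PSC value is dim, so the size of the difference of 6.12 ± 0.14 is uncertain. The SoxC genes Sox11 and Sox4, expressed in many immature tissues, rose by 3.52 ± 0.20 and 2.98 ± 0.13, and Sox9, a factor of cartilage and several epithelia, was at 6.71 in EB_PSC, against 5.30 in PSC (dim). Sox15, a relative of Sox2 that mouse embryonic stem cells also express, fell by 1.94 ± 0.19 (5.86 in EB_PSC, against 7.80 in PSC), and Sox12 fell by 0.49 ± 0.14, a fall not called without EB_PSC 1 or under cyclic loess. In PSC 2 SOX genes were higher than in ESC, Sox11 by 2.21 ± 0.18 (8.29 in PSC, against 6.08 in ESC, adjusted p = 2.58e-06) and Sox15 by 0.68 ± 0.17 (adjusted p = 0.0131), with 17 not called. Sox15 was not called without PSC 1 (adjusted p = 0.0642), nor Sox11 when its probe sets were averaged (0.14, adjusted p = 0.462). Of the 3 paralogs of Sall4, Sall1 fell by 0.93 ± 0.16 (8.73 in EB_PSC, against 9.67 in PSC, adjusted p = 0.000297), Sall2 was at 5.97 in EB_PSC, against 4.60 in PSC (dim, adjusted p = 9.45e-06) and Sall3 was not called. Sall1 was also lower in PSC than in ESC, by a difference of -0.56 ± 0.14 (adjusted p = 0.0139), though not called without PSC 2 or ESC 3, and Sall2 and Sall3 were not called. Without ESC 2, 2 of the 3 were lower.

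Genes of lineages that the core factors are known to oppose mostly moved the other way. Of 12 measured, 8 were higher in embryoid bodies, 1 lower and 3 not called, with a median of 0.90. Cdx2, among the 8 (0.45), was not called without PSC 2 (0.29) or when its probe sets were averaged (0.12). Its difference was 0.38 without EB_PSC 1 and 0.52 without EB_PSC 2. Sox7, among the 3, was called higher when its probe sets were averaged (0.94). Besides Sox17, the T-box factor gene Eomes rose by 3.37 ± 0.19 (9.41 in EB_PSC, against 6.04 in PSC, limma adjusted p = 7.15e-09). The endoderm factor genes Foxa2 and Gata6 were at 7.54 and 7.92 in EB_PSC, against 4.75 and 5.37 in PSC, where both were dim. The 1 lower gene was Tfap2c, a factor of trophoblast and germ cells, which fell by 2.37 ± 0.23. Of the 12, 1 was higher in PSC than in ESC (Tfap2c, 0.67 ± 0.21, adjusted p = 0.0359, not called without PSC 1, PSC 3, ESC 1 or ESC 3, nor without _x_at and _s_at probe sets, where it was 0.051) and 11 were not called. Without PSC 2, 2 were higher, and Eomes was lower without either EB_PSC array (-0.39, adjusted p = 0.0305), and 1 of the 12 was lower without ESC 2.

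Markers of the other cell types in which members are known to be expressed were read beside the members. Of 13 neural progenitor and neuron markers, 4 were higher in embryoid bodies, 2 lower and 7 not called, and the list had a mean log2 value of 5.57 to 5.64 in EB_PSC and 5.45 to 5.56 in PSC, with 7 of 13 dim in each. The radial glia gene Fabp7 was at 5.44 in EB_PSC, against 4.09 in PSC, the homeobox gene Otx2 at 9.04, against 7.93, the intermediate filament gene Nes at 8.01, against 7.44, and Sox1 at 4.98, against 4.43. Fabp7 and Sox1 were dim in PSC and Sox1 also in EB_PSC, and neither Nes nor Map2, the other lower gene, was called without EB_PSC 2. When probe sets of a gene were averaged, Nes (0.21), Sox1 (0.072) and Map2 (-0.14) were not called, which left 2 higher and 1 lower. The neuronal factor gene Neurod1 fell in embryoid bodies (5.08 in EB_PSC, against 7.33 in PSC). Of 7 germ cell markers 5 were lower in embryoid bodies, 0 higher and 2 not called. The list mean was 6.68 to 6.89 in EB_PSC, against 8.00 to 8.23 in PSC. Dppa3, among the 5, had a difference of -0.80, which became -0.44 without EB_PSC 1. Dazl, among the 2, was called lower when its probe sets were averaged (-0.47). The helicase gene Ddx4, a germ cell marker, fell by 2.45 ± 0.16 and the receptor gene Kit fell by 1.65 ± 0.15. Fibroblast markers had a mean of 8.90 to 9.34 in EB_PSC, against 6.10 to 6.27 in PSC, with 8 of 11 higher, 1 lower and 2 not called. Of the 8 cardiomyocyte markers, 7 were higher in embryoid bodies and 1 not called, and in PSC against ESC 8 were not called. Ryr2, among the 7, was dim in EB_PSC (5.43) and in PSC (4.59). It was not called when its probe sets were averaged (0.38), and its difference of 0.83 became 0.55 without EB_PSC 2. Nkx2-5, the 1 not called in embryoid bodies, was called higher under cyclic loess (0.45). In PSC against ESC 1 neural marker was higher (Neurod1, 1.13 ± 0.17), 1 lower (Tubb3, -0.88 ± 0.23, not called without PSC 1 or ESC 1) and 11 not called, while 3 germ cell markers were higher, 1 lower and 3 not called. Without ESC 2, 2 neural markers were lower. Of the germ cell markers 1 was higher and 0 lower without PSC 1 or without ESC 1, 1 was higher without PSC 3, and 0 were lower without ESC 3. The largest of these was Dppa3, a gene of early germ cells and oocytes, at 8.65 in PSC, against 7.41 in ESC (limma adjusted p = 0.000423). The part of neural, germ or mesenchymal cells in the member values of the embryoid bodies was not tested.

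**Figure D2:**
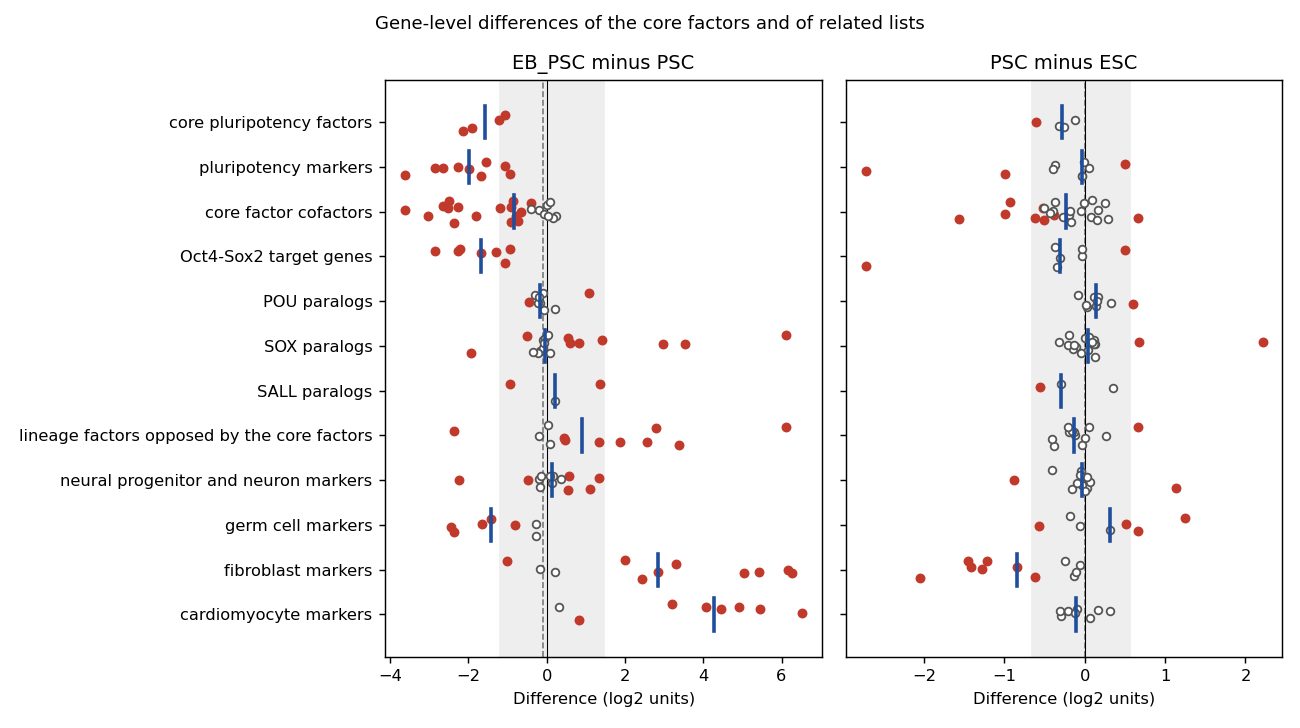
Gene-level differences in log2 units (horizontal axis), EB_PSC minus PSC on the left and PSC minus ESC on the right, for the 4 core factors (top row) and 11 lists. Red points are genes with a limma adjusted p below 0.05, open points are other genes, blue bars are list medians, the dashed line is the median of all genes and the grey band spans their 5th to 95th percentiles. On the left the core factors, the pluripotency markers and the Oct4-Sox2 target genes lie below 0 without exception, while SOX paralogs reach 6.12 (Sox17).

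Genes with the most similar course over the 8 arrays were taken as the 5 with the smallest root mean square difference from a member after each gene was centred on its own mean. The arrays share the 3 groups, so a small difference is expected of any gene with similar steps between them. For Pou5f1 these were Rpap1 (0.13 log2 units), Crybg2 (0.13), Gli1 (0.13), Adam23 (0.15) and Ntn1 (0.16), against a median of 1.08 over all genes. For Nanog they were Pecr (0.12), Grhl1 (0.14), Acp6 (0.15), Agtrap (0.15) and Rcc2 (0.15), against a median of 0.89. For Sox2 they were Paqr3 (0.11), Esco2 (0.12), Sgk1 (0.12), Zc3hc1 (0.14) and Prim2 (0.14), and for Sall4 they were Lars (0.06), 2610318N02Rik (0.06), Hus1 (0.07), Syk (0.07) and Mettl4 (0.07), each against a median of 0.56. Among the members, Sox2 and Sall4 were nearest to each other (0.17), followed by Pou5f1 and Nanog (0.24), and Pou5f1 and Sox2 were farthest apart (0.60). Counted over all genes, Nanog ranked 44 by nearness to Pou5f1, and Sall4 ranked 40 by nearness to Sox2. In the other direction Pou5f1 ranked 71 by nearness to Nanog, and Sox2 ranked 289 by nearness to Sall4. The remaining pairs ranked farther. Sox2 and Sall4 ranked 844 and 641 by nearness to Pou5f1, and 562 and 419 by nearness to Nanog. Pou5f1 and Nanog ranked 11356 and 3301 by nearness to Sox2, and 9220 and 2770 by nearness to Sall4.

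**Figure D3:**
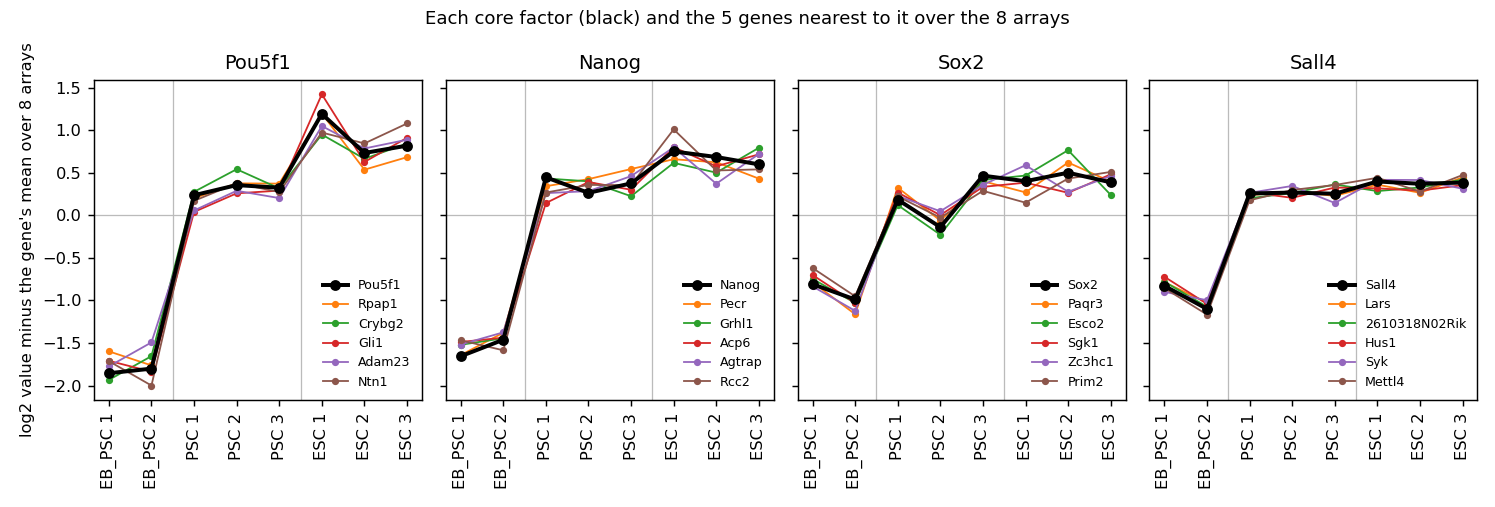
Log2 value of each core factor (black) and of the 5 genes nearest to it (colours), minus the mean of that gene over the 8 arrays (vertical axis), on the 2 EB_PSC, 3 PSC and 3 ESC arrays from left to right. Among the 4 core factors Pou5f1 spans the widest range, and the dip of Sox2 on PSC 2 is shared by its neighbours, which were selected for such likeness.

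The promoter letters were also read across the genes. Of 14453 measured genes with a window, 26.0% were lower and 18.5% higher in EB_PSC than in PSC. Of the 1460 with an octamer match, 24.5% were lower and 17.1% higher, and of the 1586 with a Sox match, 20.9% were lower and 16.6% higher. The single octamer and Sox letters in these short windows therefore went with no larger share of lower genes than was present among all genes with a window. Of the 2383 genes with AGGTCA, 24.7% were lower and 15.5% higher. Of the 8286 with GGGCGG, 30.4% were lower and 21.9% higher, so both shares were larger than among all genes with a window.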

How the data were processed

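RNA from 3 kinds of culture was measured on 8 one-colour Affymetrix arrays. The deposited values are log2 values made by the authors with RMA in Bioconductor, as the labels and the submitters' processing notes state. No version is named in these sources. RMA equalises the distributions of the arrays and compresses small signals, so folds are likely understated. Gene symbols come from the platform annotation. All 45037 non-control probe sets, and separately 18194 genes by their brightest single-symbol probe set, entered limma 3.58.1 under R 4.3.3 (lmFit and eBayes, group as the only term, 5 residual degrees of freedom, two-sided, Benjamini-Hochberg over the whole table, called below 0.05). The number of arrays limits the precision. The test was checked on simulated data, with 67 or 66 of 45037 probe sets changed at each size. Of changes of 0.5, 1 and 2 log2 units it called 4.48%, 61.2% and 97% for EB_PSC against PSC. For PSC against ESC it called 11.9%, 74.6% and 100%. Far more probe sets are called in the data, so these shares need not carry over. Members and lists were chosen with earlier results of these data known, and the promoter motifs were added later still. Of 119 list genes, 109 were measured and 10 not analysed here. Named genes are the members, their 5 nearest genes and up to 4 called genes per list and direction, unless stated otherwise. Same-numbered arrays did not deviate together (correlations of deviations -0.256 to 0.203), so the main fit has no block. As alternatives, arrays were normalized again (quantile or cyclic loess) or weighted, left out singly, or blocked by replicate number; dim, _x_at or _s_at probe sets were removed; the prior was trended and robust; groups were fitted pairwise; a 2-fold threshold was set; and probe sets of a gene were averaged.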

Additional observations from a re-analysis of the deposited data

How the results depend on the processing

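Each of the 5 member probe sets kept its direction in all 3 comparisons under every alternative that held it (17, or 16 for Sall4 1424153_s_at, which is absent without _x_at and _s_at probe sets). The falls in embryoid bodies kept their calls except under the 2-fold threshold, where 2 of 5 probe sets and 2 of 4 genes were called against PSC and also against ESC. Under it Sox2 (-1.07, adjusted p = 1) and Sall4 (-1.22 and -1.26, 0.633 and 0.734) were not called against PSC, nor Sox2 (-1.33, 0.393) and Sall4 (-1.35 and -1.02, 0.11 and 1) against ESC. Between PSC and ESC it called 0 members, Pou5f1 (-0.61, adjusted p = 1) included. It left 40 of 71 called list genes between EB_PSC and PSC and 3 of 27 between PSC and ESC, and 2270, 191 and 2757 probe sets in the 3 comparisons in place of 15531, 7037 and 16154. Without PSC 1 or PSC 2, 4395 or 4629 probe sets were called between PSC and ESC.

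Pou5f1 differed by -0.70 to -0.47 between PSC and ESC when single arrays were left out (adjusted p from 0.00459 to 0.0388). Nanog passed the gene-level test there with the trended prior (adjusted p = 0.0461) and with the mean of probe sets (0.0394), which gave 2 called genes. Nanog has 1 probe set, so its own difference (-0.32) was the same in both. Only the prior and the adjustment over all genes differed from the main fit. Sall4 1424153_s_at was called higher with array weights (0.40, adjusted p = 0.0382), and the mean of both Sall4 probe sets turned the gene-level difference to 0.060 (adjusted p = 0.721). Of the differences between members, Sox2 minus Sall4 ranged from -0.0049 to 0.30 (EB_PSC against PSC) and from -0.28 to 0.025 (PSC against ESC) when single arrays were left out, with the sign turned without PSC 2, and Nanog minus Sox2 ranged from -0.16 to 0.084 (PSC against ESC), turned without PSC 3. The causes were not tested. With the replicate block 5, 1 and 5 member probe sets were called, Pou5f1 at -0.61 between PSC and ESC (adjusted p = 0.0152), and no member call changed; same numbers mark no stated pairing. The counts per list moved by over 1.5 times in 26 of 396 list values for EB_PSC against PSC, 13 of them under the 2-fold threshold, and in 65 of 396 for PSC against ESC.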
